A study of Homo sapiens with 4 samples.

Results

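The genes described here carry out and control the handling of cholesterol and fatty acids, and were chosen by name as 39 members of the sterol synthesis, fatty acid synthesis, uptake, efflux and regulator branches under SREBP and LXR. Of these, 38 matched an identifier among the 57820 genes of the count files; ACACA matched none and was not analysed. They fell into 6 branches: 7 genes of the mevalonate arm of sterol synthesis, 11 genes from squalene to sterol, 5 of uptake, transport and storage, 5 SREBP regulators, 7 of fatty acid synthesis, and 3 LXR targets and efflux genes. RNA had been sequenced from Daoy cells, an established line from a human medulloblastoma, in a study of what ARID1B, a DNA-binding subunit of SWI/SNF chromatin remodelling complexes, does to gene expression. One library came from a polyclonal Daoy population carrying a lentiviral tet-pLKO-puro vector that expresses a short hairpin RNA (shRNA) against ARID1B in the presence of doxycycline, and 3 libraries were labelled wild type. Parental and vector-only cells served as the controls of the study, but no label tells which of the 3 libraries is of which kind. The treatment given on every label is doxycycline at 1 µg/ml for 72 h.

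Cells sense cholesterol in the membrane of the endoplasmic reticulum. When it is scarce, SCAP escorts the SREBP transcription factors, encoded by SREBF1 and SREBF2, to the Golgi, where proteases release the part that enters the nucleus and switches on genes of sterol and fatty acid synthesis. When it is plentiful, INSIG proteins hold SCAP back, and oxysterols activate the LXR nuclear receptors, which switch on export through ABC transporters. SREBF2 is known mainly for sterol genes and SREBF1 mainly for fatty acid genes, and INSIG1 is itself a target of the pathway it restrains.

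SREBP binds short sterol regulatory elements before its target genes, so promoters of members were read from the RefSeq table of GRCh38.p14, from 250 bases before to 50 after each listed start; a gene with several starts counted once if any of them held a match. Of the 39 members 34 had an entry, and ABCG1, ACAT2, FASN, FDFT1 and SQLE had none. A 9-letter form of the element, TCACNCCAC, and its first and last 8 letters, TCACNCCA and CACNCCAC, were searched on both strands. The promoters of 9 members held at least one of the 8-letter forms (26.5%), against 10.2% of all 27305 genes in the table. The first 8 letters occurred in 3 members and 4.805% of genes, the last 8 in 7 and 7.05%, and all 9 in SREBF2 alone among the members and 1.39% of genes. The 60-base stretches around the match are shown on the strand of the gene, with the match in capitals. They are those of SREBF2 and of the matched members that fell as measured (below), MSMO1, IDI1 and INSIG1.
SREBF2, chr22:41832946-41833005 (+ strand): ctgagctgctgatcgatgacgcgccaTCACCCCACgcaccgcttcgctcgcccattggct
MSMO1, chr4:165327487-165327546 (+ strand): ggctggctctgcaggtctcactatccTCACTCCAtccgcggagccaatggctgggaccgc
IDI1, chr10:1048968-1049027 (- strand): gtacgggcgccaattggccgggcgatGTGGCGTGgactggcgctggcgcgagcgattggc
INSIG1, chr7:155297644-155297703 (+ strand): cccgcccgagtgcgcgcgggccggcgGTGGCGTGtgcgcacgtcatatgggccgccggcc
The matches in IDI1 and INSIG1 lie on the opposite strand and so read GTGGCGTG here. Counted from the start each stretch belongs to, the matches began at positions -133, -156, -115 and -208. MVK, SC5D, SCD, ABCA1 and ACACA held a match as well. Of the other members that fell as measured (below), HMGCS1, STARD4 and FADS1 had an entry but no match, and ACAT2 and FDFT1 had no entry. Some members fell only after removal of a trend on GC content and length (below). Of these SREBF2 held a match, and FDPS, DHCR7 and FADS2 had an entry but no match. The CCAAT box, bound by the SREBP partner NF-Y (letters CCAAT, both strands), was in the promoters of 23 of the 34 members and 39.7% of genes. The box bound by the partner SP1 (GGGCGG, both strands) was in 33 members and 48.3% of genes. No member held an exact copy of the LXR element DR4 (a direct repeat of AGGTCA with 4 bases between, both strands), which 0.0256% of genes held. Copies with any letter of the repeat changed were not searched, so an inexact LXR element may lie in these promoters. The shares of genes cover all 27305 genes of the table, whether tested here or not. Those genes were not matched to the members in number of starts. These matches describe letters in a window and were not tested against the measured levels.

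Genic reads numbered 12619786 to 15390106 in the wild-type libraries, against 8792848 in the library labelled ARID1B shRNA. ARID1B, the check of that label, was not lower there: it measured 164, 88.0 and 72.9 CPM in wild-type libraries 1, 2 and 3 against 175 CPM in the library labelled ARID1B shRNA (log2 fold change 0.69, SE 0.46, edgeR adjusted p = 0.399; 0.0260 without wild-type library 1, where the log2 fold change was 1.12). With the trend described next removed it stood at 0.57 with a loess trend of degree 2 and at -0.16 with one of degree 1. Every direction below is therefore that of the library so labelled. CPM are counts scaled to the size of each library, and that library has no replicate, so the spread in every test comes from the wild-type libraries, which nothing says were separate cultures. The log2 fold change also moved with GC content: its median over all tested genes went from -0.30 in the decile of lowest GC content to 1.32 in the highest. Fold changes are therefore given as measured and again after removal of the trend that each library shows on GC content and transcript length. Of 6 markers of the cerebellar granule lineage, from which medulloblastoma can arise, ZIC1, ZIC2 and PAX6 exceeded 1 CPM in each library, while ATOH1 had 0 counts throughout and NEUROD1 and BARHL1 stayed at 0.466 CPM or less. ZIC1 and PAX6 lay within the wild-type range. ZIC2 measured 8.93, 10.6 and 8.14 CPM in wild type against 24.8 CPM in the library labelled ARID1B shRNA (interval 21.6 to 28.3) and rose by 1.43 on the log2 scale (SE 0.26, edgeR adjusted p = 0.0430; 0.89 and 0.175 with the trend removed). Of the 11 hepatocyte, adipocyte and blood markers none exceeded 1.63 CPM in any library. The 3 progenitor and mesenchymal markers NES, VIM and SOX2 summed to 2449 to 2669 CPM in wild type, nearly all of it VIM, and to 943 CPM in the library labelled ARID1B shRNA. VIM stood at -1.42 on the log2 scale (-1.28 with the trend removed) and passed in both fits. NES, at 4.11 CPM there, lay within the wild-type range, and SOX2, at 1.82 CPM, lay below it (-1.52). Neither NES nor SOX2 passed in either fit. The part of these markers in the results below was not tested.

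The summed level of the sterol synthesis genes was lower in the library labelled ARID1B shRNA, and among the single genes that passed most were lower, while the lipoprotein receptor gene VLDLR was higher. Of 38 tested members 8 fell (21.1%), against 0.834% of all 17024 tested genes, and 1, VLDLR, rose (2.63%), against 3.65%. In either direction 4.48% of all tested genes passed. The members were chosen with earlier results of these data known, so no test was made of the shares given here and below. The genes that fell were ACAT2, HMGCS1, IDI1, FDFT1 and MSMO1 of sterol synthesis, the sterol carrier gene STARD4, INSIG1 and the desaturase gene FADS1. Without regard to a test, 25 members (65.8%) lay below all 3 wild-type libraries, against 37.9% of all tested genes, and 9 (23.7%) lay above them, against 35.4%. The 9 and the 38 tested members include CYP51A1, whose few reads are no measure of its level, as described below. In bulk RNA, a lower level in every cell and a smaller share of expressing cells cannot be told apart.

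After removal of the GC and length trend 10 members fell (26.3%), against 0.816% of all genes, and VLDLR rose, against 1.98%. Of the 8 members that fell as measured 6 fell again, STARD4 and INSIG1 did not pass, and FDPS, DHCR7, SREBF2 and FADS2 were added. The calls rest on 3 wild-type libraries. By edgeR, 12 members fell without library 1, 0 without library 2 and 1, SCD, without library 3, and the share of all tested genes that fell moved with them, to 1.65%, 0.102% and 0.173%. At an unadjusted p below 0.05, 20 members were lower with all libraries, against 9.79% of all tested genes. At that p 4 members were higher, with CYP51A1 among them, against 15.6% of all tested genes. Without libraries 1, 2 and 3 in turn 19, 20 and 19 members were lower at that p, against 8.22%, 8.26% and 7.78% of all tested genes. DESeq2 on all libraries gave 14 members that fell, against 2.58% of all tested genes, and limma-voom 7, against 0.634%. VLDLR rose without each wild-type library in turn, where 5.43%, 0.836% and 2.68% of all tested genes rose.

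**Figure D1:**
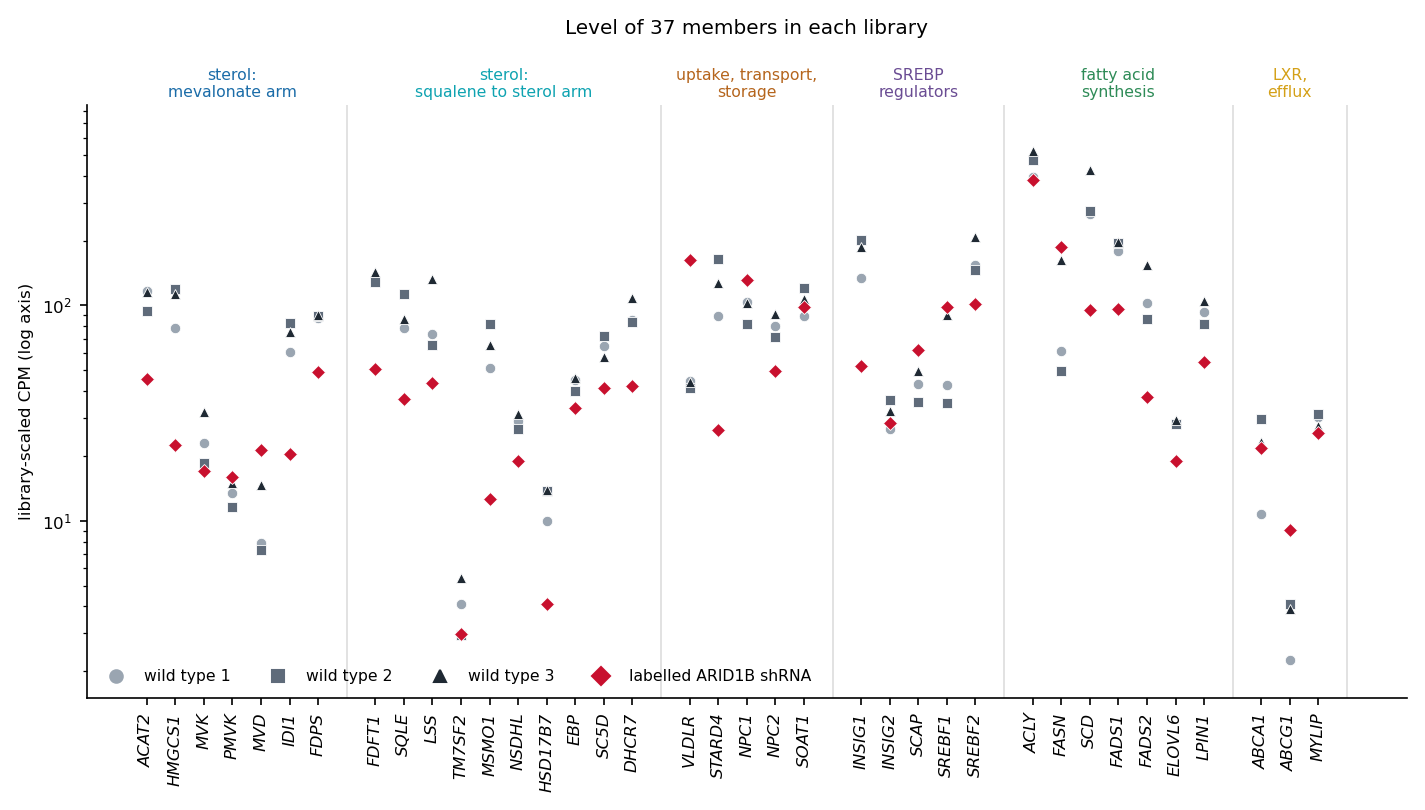
Library-scaled CPM on a log axis for 37 members, grouped by branch; CYP51A1, at 0 counts in one library, is left out. Each symbol is 1 library: grey to black for wild-type libraries 1 to 3, red diamonds for the library labelled ARID1B shRNA. The red diamonds of HMGCS1, MSMO1, STARD4 and INSIG1 lie well under all wild-type symbols, and that of VLDLR, at 162 CPM, well above.

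The first enzymes of the mevalonate arm turn acetyl-CoA into mevalonate and then into isoprenoid units. ACAT2, the cytosolic thiolase that joins acetyl-CoA, measured 117, 94.7 and 115 CPM in wild-type libraries 1, 2 and 3 against 45.5 CPM in the library labelled ARID1B shRNA (95% Poisson interval 41.2 to 50.2). It fell by 1.26 on the log2 scale (SE 0.21, edgeR adjusted p = 0.0385), and the groups did not overlap. In GENCODE release 29, 52.3% of its exon length also lies in genes of the opposite strand (TCP1 and SOD2), and the strand setting of the counting is not given in the sources used here, so its level is uncertain. HMGCS1, which makes HMG-CoA from acetoacetyl-CoA, measured 78.9, 119.8 and 114 CPM in wild type and 22.6 CPM (interval 19.5 to 25.96). It fell by 2.20 (SE 0.32, edgeR adjusted p = 0.0314), and its lowest wild-type value, in library 1, was still above that of the library labelled ARID1B shRNA. IDI1, which isomerises isopentenyl diphosphate and whose matched promoter stretch is shown above, measured 61.0, 82.8 and 74.98 CPM in wild type and 20.4 CPM (interval 17.5 to 23.6). It fell by 1.84 (SE 0.26, edgeR adjusted p = 0.0297), again without overlap. With the trend removed the log2 fold changes were -1.26, -1.99 and -1.63 (edgeR adjusted p = 0.0351, 0.0366 and 0.0301). Without wild-type libraries 2 and 3 the edgeR adjusted p was 0.0565 and 0.0768 for ACAT2, 0.0576 and 0.0729 for HMGCS1 and 0.0565 and 0.0680 for IDI1.

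FDPS, which makes farnesyl diphosphate, the last product shared by sterols and other isoprenoids, measured 87.2, 89.7 and 89.95 CPM in wild type against 49.3 CPM in the library labelled ARID1B shRNA (interval 44.7 to 54.1). The 3 wild-type values were close together and the lone value lay below them (log2 fold change -0.85, SE 0.17, edgeR adjusted p = 0.0559), and FDPS passed with the trend removed (-1.08, edgeR adjusted p = 0.0348). GENCODE names 8 pseudogene copies of FDPS, which could share its reads, and 18.6% of its exon length lies in a gene of the opposite strand (RUSC1-AS1). Among the other members it names 3 copies of CYP51A1, 2 of HSD17B7 and 1 each of SCD and FADS2. MVK, PMVK and MVD, which act between mevalonate and IDI1, did not pass in either fit. The mevalonate kinase gene MVK, the phosphomevalonate kinase gene PMVK and the decarboxylase gene MVD stood at -0.53, 0.26 and 1.09 on the log2 scale (edgeR adjusted p = 0.398, 0.573 and 0.192). With the trend removed PMVK and MVD turned to -0.36 and -0.14 and MVK stood at -1.01 (edgeR adjusted p = 0.340, 0.793 and 0.0880); their transcripts have a GC content of 59.5%, 63.7% and 58.2%. Of the 7 genes of this arm 3 fell and none rose as measured (1, MVD, at an unadjusted p below 0.05), and 4 fell with the trend removed. Of all tested genes 0.834% fell as measured and 0.816% with the trend removed, and 15.6% were higher at an unadjusted p below 0.05 as measured. The summed level of the arm was 389, 425 and 455 CPM in wild-type libraries 1, 2 and 3, against 192 CPM in the library labelled ARID1B shRNA.

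Squalene is the first intermediate committed to sterols. FDFT1, squalene synthase, measured 129.5, 129 and 143 CPM in wild type against 50.6 CPM in the library labelled ARID1B shRNA (interval 46.0 to 55.6). It fell by 1.40 on the log2 scale (SE 0.18, edgeR adjusted p = 0.0270), with wild-type libraries that differed little among themselves. MSMO1, which removes methyl groups from the sterol ring, measured 51.1, 82.2 and 65.3 CPM in wild type and 12.7 CPM (interval 10.4 to 15.2). As measured it had the largest decrease of the members, 2.39 on the log2 scale (SE 0.35, edgeR adjusted p = 0.0314), without overlap. DHCR7, the reductase of the last step to cholesterol in one of the routes, measured 85.7, 83.6 and 108 CPM in wild type and 42.1 CPM (interval 37.9 to 46.6). Its log2 fold change of -1.14 (SE 0.23) did not pass as measured (edgeR adjusted p = 0.0565) and passed with the trend removed (-1.58, 0.0186) and without wild-type library 1 (0.0385). After removal of the trend FDFT1 and MSMO1 stood at -1.30 and -2.13 and passed (edgeR adjusted p = 0.0247 and 0.0252), and without wild-type libraries 2 and 3 their edgeR adjusted p was 0.0563 and 0.0502 for FDFT1 and 0.05002 and 0.0754 for MSMO1.

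The other 8 genes of this arm did not pass in either fit. The squalene epoxidase gene SQLE and the ketoreductase gene HSD17B7 lay below all wild-type libraries, by a log2 fold change of -1.33 for SQLE and -1.61 for HSD17B7 (edgeR adjusted p = 0.0565 and 0.0671). The cyclase gene LSS, the dehydrogenase gene NSDHL, the isomerase gene EBP and the desaturase gene SC5D also lay below them, with -1.05, -0.61, -0.38 and -0.66 (edgeR adjusted p = 0.234, 0.173, 0.304 and 0.135). LSS varied among wild-type libraries, from 65.8 CPM in library 2 to 133 CPM in library 3. The reductase gene TM7SF2, at 2.94 to 5.402 CPM in wild type and 2.97 CPM, lay within the wild-type range (log2 fold change -0.49, edgeR adjusted p = 0.556; -1.82 and 0.0621 with the trend removed). CYP51A1, the lanosterol demethylase gene, had 0, 1 and 4 reads in wild type, against 14 in the library labelled ARID1B shRNA, and passed the filter on low counts through the latter. In GENCODE release 29, 79.4% of its exon length is shared with other annotation of the same strand, where a read can fit more than 1 gene. The annotation used for the counts is not given, so whether this lowered them is not known. With so few reads these counts are taken as no measure of its level. Of the 11 genes 2 fell and none rose (1, CYP51A1, at an unadjusted p below 0.05), and 3 fell with the trend removed. The shares of all tested genes that fell were 0.834% as measured and 0.816% with the trend removed. The summed level of this arm was 572, 629 and 689.7 CPM in wild-type libraries 1, 2 and 3, against 288 CPM in the library labelled ARID1B shRNA.

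Over both arms of sterol synthesis the median log2 fold change was -0.95 and -1.22 with the trend removed, against -0.05 and -0.04 over all tested genes. Of the 18 genes 15 had a negative log2 fold change as measured and 17 with the trend removed. Below all wild-type libraries lay 14 (77.8%), against 37.9% of all tested genes. The 18 genes include CYP51A1, whose counts are no measure of its level and whose log2 fold change was positive in both fits. The summed level in the library labelled ARID1B shRNA was 45.6% of the wild-type mean (480.3 CPM against 1053 ± 92.3 CPM, SD, n = 3). No sterol synthesis gene passed by edgeR without wild-type library 2 or without library 3, where 12 and 11 were lower at an unadjusted p below 0.05, as were 11 with all libraries. At that p 8.26%, 7.78% and 9.79% of all tested genes were lower in these fits.

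**Figure D2:**
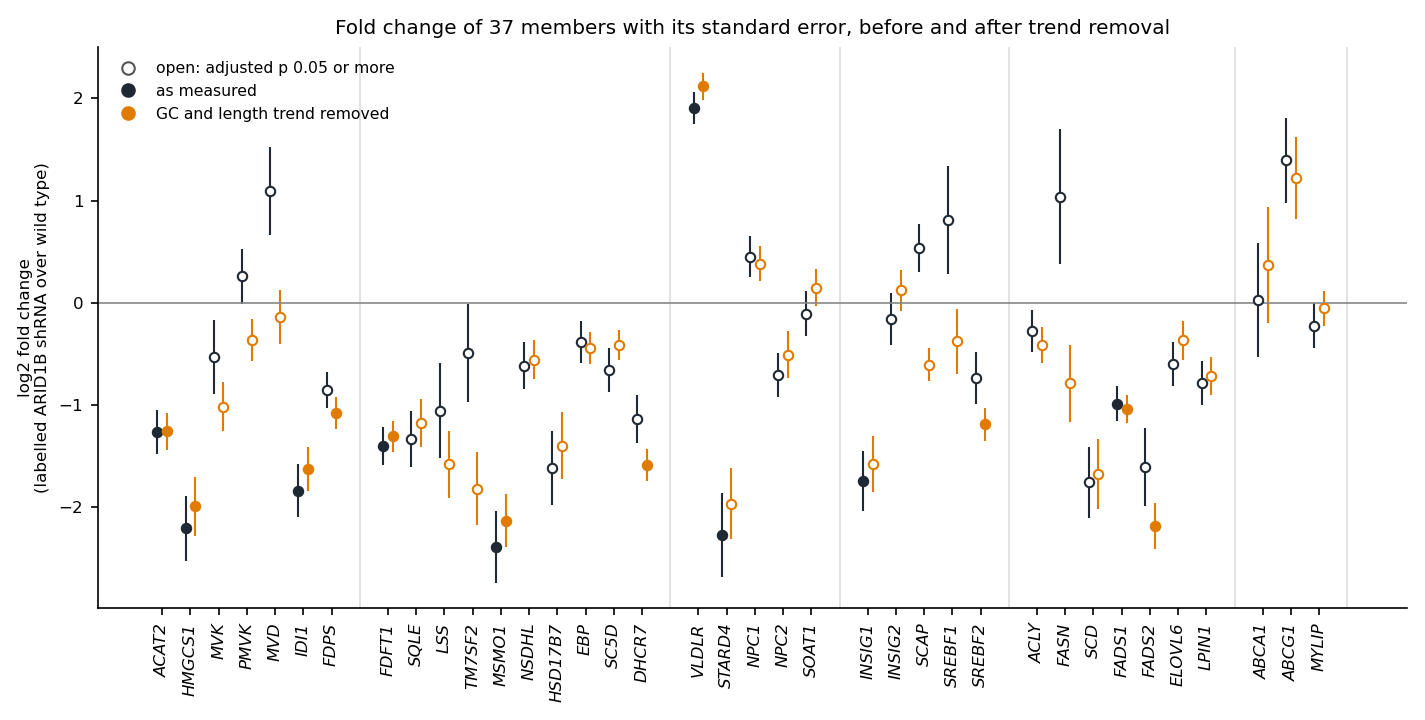
Log2 fold change of 37 members, the library labelled ARID1B shRNA over wild type, as measured (black) and after the GC and length trend was taken out (orange); bars are standard errors from the edgeR fit and filled points have an adjusted p below 0.05. Filled points of sterol synthesis all lie below 0, VLDLR lies at 1.90 and 2.12, and MVD, SCAP, SREBF1 and FASN are among the genes that change sign between the fits.

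Genes of uptake, transport and storage did not move in one direction. VLDLR, a receptor of the lipoprotein receptor family that takes up triglyceride-rich particles and also binds reelin, measured 44.5, 41.3 and 44.0 CPM in wild type against 162 CPM in the library labelled ARID1B shRNA (interval 154 to 171). It rose by 1.90 on the log2 scale (SE 0.16, edgeR adjusted p = 0.0151; 2.12 and 0.0146 with the trend removed), far outside a narrow wild-type range. Without wild-type libraries 1, 2 and 3 its edgeR adjusted p was 0.00313, 0.0490 and 0.0398. STARD4, a cytosolic sterol carrier and a known SREBP target, measured 88.9, 165 and 128 CPM in wild type and 26.3 CPM (interval 23.1 to 30.0). It fell by 2.27 (SE 0.41, edgeR adjusted p = 0.0467), with wild-type libraries that differed widely and a lone value below all of them. The STARD4 call ended with the trend removed (-1.96, 0.0604), with limma-voom (0.0561), with a minimum mean count of 50 (0.0552) and without wild-type libraries 2 and 3 (0.0586 and 0.123).

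NPC1 and NPC2, which move cholesterol out of the lysosome, did not pass and lay on opposite sides of wild type: NPC1 measured 96.1 ± 12.0 CPM in wild type (SD, n = 3) and 132 CPM, and NPC2 81.0 ± 10.004 and 49.7 CPM (log2 fold change 0.45 and -0.70, edgeR adjusted p = 0.222 and 0.121). SOAT1, which esterifies cholesterol for storage, lay within the wild-type range (106 ± 15.3 and 98.2 CPM, edgeR adjusted p = 0.792). The summed level of the branch was 407, 479.6 and 473 CPM in wild-type libraries 1, 2 and 3, against 468 CPM in the library labelled ARID1B shRNA, within the wild-type range, with the lower STARD4 and NPC2 and the higher VLDLR and NPC1 in the same sum.

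Among the SREBP regulators only INSIG1 passed as measured. INSIG1 measured 134, 201 and 187 CPM in wild type against 52.1 CPM in the library labelled ARID1B shRNA (interval 47.5 to 57.1). It fell by 1.74 on the log2 scale (SE 0.29, edgeR adjusted p = 0.0385), without overlap. The call was at the threshold with the trend removed (-1.57, edgeR adjusted p = 0.0523; with a trend of degree 1 in place of 2, 0.0463) and ended without wild-type libraries 2 and 3 (0.0679 and 0.0968). Its paralogue INSIG2 measured 26.7, 36.3 and 32.3 CPM in wild type and 28.5 CPM, within the wild-type range (log2 fold change -0.15, edgeR adjusted p = 0.733).

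SREBF2, whose promoter holds the 9-letter element shown above, measured 154, 147 and 209 CPM in wild type against 102 CPM in the library labelled ARID1B shRNA (interval 95.4 to 109). It lay below all wild-type libraries without passing (log2 fold change -0.73, SE 0.26, edgeR adjusted p = 0.152) and passed with the trend removed (-1.18, 0.0316). SREBF1 measured 42.8, 35.3 and 90.02 CPM in wild type and 98.5 CPM. Wild-type library 3 was close to the library labelled ARID1B shRNA and far from libraries 1 and 2, and the log2 fold change of 0.81 (SE 0.53, edgeR adjusted p = 0.390) turned to -0.37 with the trend removed (0.522); gene counts do not separate the isoforms of SREBF1. SCAP measured 43.3, 35.8 and 49.6 CPM in wild type and 62.2 CPM, above all of them without passing (0.53, edgeR adjusted p = 0.225), and turned to -0.60 with the trend removed (0.112). SREBF1 and SCAP transcripts have a GC content of 62.8% and 62.3%, in the decile of highest GC content.

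Genes of fatty acid synthesis lay mostly lower, with one call as measured. FADS1, a desaturase of polyunsaturated fatty acids, measured 179, 194 and 197 CPM in wild type against 96.2 CPM in the library labelled ARID1B shRNA (interval 89.8 to 103). It fell by 0.98 on the log2 scale (SE 0.17, edgeR adjusted p = 0.0415; -1.04 and 0.0304 with the trend removed), without overlap, and had an edgeR adjusted p of 0.0799 and 0.0889 without wild-type libraries 2 and 3. Its neighbour FADS2, the desaturase that acts before it, measured 103, 86.7 and 153 CPM in wild type and 37.6 CPM (interval 33.7 to 41.9). FADS2 lay below all wild-type libraries (-1.60, SE 0.38, edgeR adjusted p = 0.0783) and passed with the trend removed (-2.18, 0.0195). SCD, which makes monounsaturated fatty acids, measured 265, 275 and 427 CPM in wild type and 95.7 CPM (interval 89.3 to 102). Its log2 fold change of -1.75 (SE 0.35) did not pass with all libraries (edgeR adjusted p = 0.0565) or with the trend removed (0.0765), but passed without wild-type library 1 (0.0191) and without library 3 (0.0461), in which SCD was highest.

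FASN, the fatty acid synthase gene, measured 61.6, 49.9 and 162 CPM in wild type against 188 CPM in the library labelled ARID1B shRNA. Wild-type library 3 stood apart from libraries 1 and 2 here as for SREBF1, and the log2 fold change of 1.04 (SE 0.66, edgeR adjusted p = 0.380) turned to -0.79 with the trend removed (0.293). Without library 3 FASN was higher by 1.75 (edgeR adjusted p = 0.0434). Its transcript has a GC content of 65.3%, the highest of the members. ACLY, which supplies cytosolic acetyl-CoA, the elongase gene ELOVL6 and the phosphatidate phosphatase gene LPIN1 lay below all wild-type libraries without passing, at -0.28, -0.60 and -0.78 on the log2 scale (edgeR adjusted p = 0.436, 0.161 and 0.100). The branch had a median log2 fold change of -0.78 as measured and -0.79 with the trend removed, and all 7 tested genes had a negative value in the latter.

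**Figure D3:**
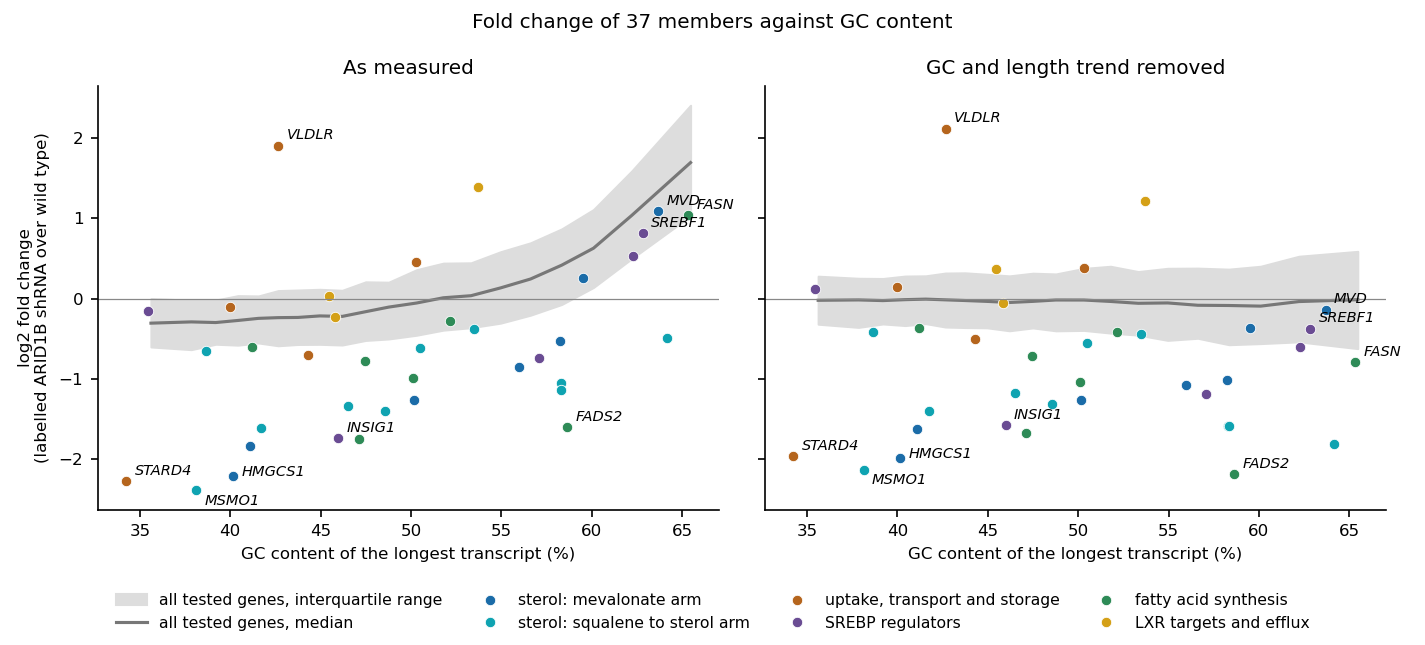
Log2 fold change against the GC content of the longest transcript, as measured (left) and after the GC and length trend was taken out (right); coloured points are 37 members by branch, and the grey line and band are the median and interquartile range of all tested genes in 20 bins of GC content. On the left the grey line climbs at high GC content and FASN, SREBF1 and MVD lie above 0; on the right it is nearly flat and the 3 genes lie below 0, while STARD4, MSMO1 and HMGCS1 lie under the band in both.

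None of the 3 LXR targets passed by edgeR as measured or with the trend removed; 1, ABCG1, was higher at an unadjusted p below 0.05, and with DESeq2 and limma-voom none passed either, while ABCG1 passed with no filter on low counts. ABCA1, the transporter that loads cholesterol onto apolipoproteins, measured 10.8, 29.6 and 23.2 CPM in wild type against 21.7 CPM in the library labelled ARID1B shRNA, within a wide wild-type range (log2 fold change 0.03, SE 0.56, edgeR adjusted p = 0.978). ABCG1, which exports cholesterol to lipoproteins, measured 2.25, 4.10 and 3.91 CPM in wild type and 9.01 CPM (interval 7.13 to 11.2), above all wild-type libraries (1.39, SE 0.41, edgeR adjusted p = 0.116). MYLIP, a ubiquitin ligase that lowers lipoprotein receptors, measured 30.3, 31.4 and 27.4 CPM in wild type and 25.4 CPM, below all of them (log2 fold change -0.22, SE 0.22, edgeR adjusted p = 0.554). The direction of ABCA1 turned with upper-quartile scaling, without wild-type library 1 and with a trend of degree 1 (-0.0851, -0.28 and -0.18).

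Set beside each other, the summed level of sterol synthesis was 45.6% of the wild-type mean, that of fatty acid synthesis 67.0%, that of the SREBP regulators 72.4%, that of uptake, transport and storage 103% and that of the LXR targets 103%. The sum over fatty acid synthesis was 1126, 1190.1 and 1594 CPM in wild-type libraries 1, 2 and 3, against 873 CPM in the library labelled ARID1B shRNA, and most of its reads came from ACLY and SCD. Sterol synthesis stood to fatty acid synthesis as 0.853, 0.885 and 0.718 to 1 in wild-type libraries 1, 2 and 3 and as 0.550 to 1 in the library labelled ARID1B shRNA, below all of them. These sums and ratios are as measured, without removal of the GC and length trend. The fatty acid sum includes FASN, at 188 CPM against a wild-type mean of 91.3 CPM, which turned to -0.79 on the log2 scale with the trend removed. In the sterol sum PMVK and MVD turned likewise. The difference between branches was not tested. Per kilobase of the longest transcript, ACLY had the highest level of the members in wild type (91.2, 109 and 119.8 CPM per kb) and in the library labelled ARID1B shRNA (88.2 CPM per kb). SCD, INSIG1, NPC2 and FDFT1 followed in wild type with means of 60.1, 57.8, 56.4 and 50.3 CPM per kb, and their wild-type ranges overlapped. In the library labelled ARID1B shRNA they stood at 17.8, 17.3, 34.6 and 19.0 CPM per kb.

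**Figure D4:**
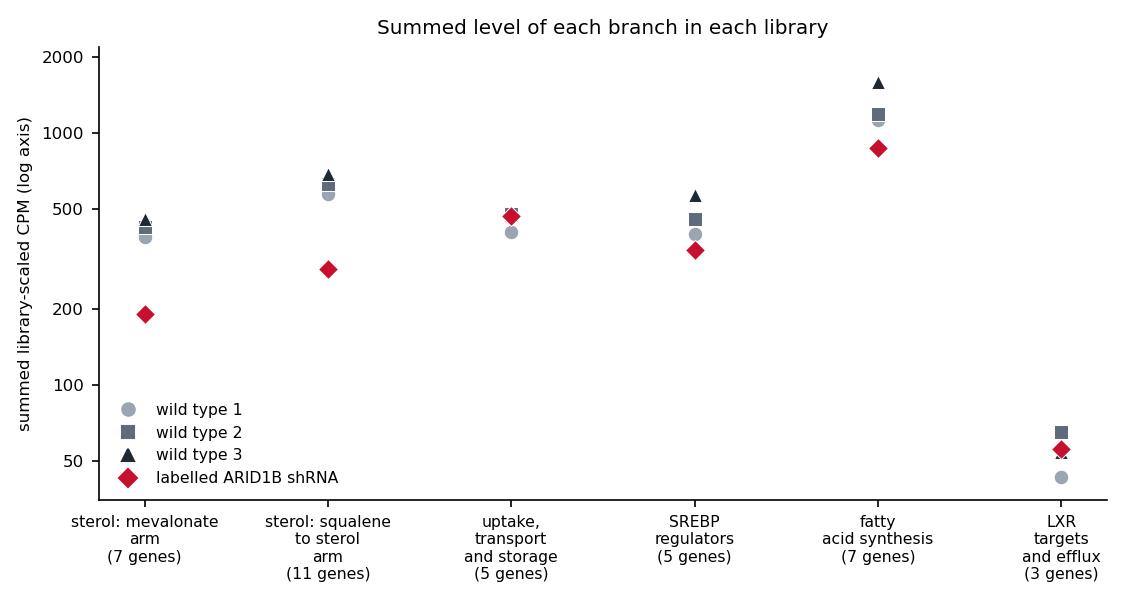
Summed library-scaled CPM of each branch on a log axis, 1 symbol per library: grey to black for wild-type libraries 1 to 3, red diamonds for the library labelled ARID1B shRNA. The red diamond lies below all wild-type symbols for both sterol arms (192 and 288 CPM), the SREBP regulators and fatty acid synthesis, and among them for uptake and LXR targets.

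Other genes of the same pathways were counted from lists that hold no member. Of 51 such genes 50 were tested; 1 fell, LIPA, and 3 rose, ME1, NR1H2 and AGPAT2, and their median log2 fold change was -0.12. These are 2% and 6%, near the 0.834% and 3.65% of all tested genes. NR1H2, which encodes the receptor LXR-beta, measured 23.4, 21.4 and 37.5 CPM in wild type against 112 CPM in the library labelled ARID1B shRNA (interval 105 to 119.6). It rose by 2.03 on the log2 scale (SE 0.32, edgeR adjusted p = 0.0368; 1.27 and 0.0363 with the trend removed), and had an edgeR adjusted p of 0.0688 when wild-type library 2 was left out. It lay above all wild-type libraries. ME1, malic enzyme, a source of NADPH for fatty acid synthesis, measured 86.8, 102 and 84.4 CPM in wild type and 187 CPM and rose by 1.04 (SE 0.18, edgeR adjusted p = 0.0392; 1.27 and 0.0173 with the trend removed; 0.0574 and 0.0933 without wild-type libraries 2 and 3). AGPAT2, an acyltransferase of glycerolipid synthesis, measured 7.92, 6.18 and 14.3 CPM in wild type and 65.0 CPM and rose by 2.78 (SE 0.43, edgeR adjusted p = 0.0360). With the trend removed its log2 fold change was 1.14 and did not pass (0.0604; with a trend of degree 1 it was 1.18 and passed, at 0.0467), nor did AGPAT2 pass without wild-type library 2 (0.0629); its GC content is 65.9%. LIPA, the lysosomal acid lipase that frees cholesterol from its esters, measured 67.4, 63.6 and 63.3 CPM in wild type and 30.9 CPM and fell by 1.07 (SE 0.19, edgeR adjusted p = 0.0426). The LIPA call ended with the trend removed (-0.86, 0.0588) and without wild-type libraries 1, 2 and 3 (0.0579, 0.0737 and 0.0819).

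By list, none of the 8 genes of SREBP processing and sterol sensing passed by edgeR (1 lower and 1 higher at an unadjusted p below 0.05), and their median log2 fold change was -0.02. Of 10 further SREBP targets 1, ME1, rose and none fell, and the median was -0.49. At an unadjusted p below 0.05, 3 of them were lower, against 9.79% of all tested genes. Of 8 LXR receptors and targets 1, NR1H2, rose (median -0.27). None of the 7 genes of the isoprenoid branch, which leads from the mevalonate arm to prenyl groups and ubiquinone in place of sterols, passed, nor had any an unadjusted p below 0.05 (log2 fold changes -0.34 to 0.38, median -0.14). Of 7 tested genes of lysosomal, oxysterol and ester handling 1, LIPA, fell (median 0.14), and of 10 fatty acid and glycerolipid enzymes 1, AGPAT2, rose (median 0.36). DESeq2 gave 4 that fell and 3 that rose over the 50 genes, and limma-voom 1 and 3. Of all tested genes 2.58% fell and 7.85% rose with DESeq2, and 0.634% and 4.61% with limma-voom.

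**Figure D5:**
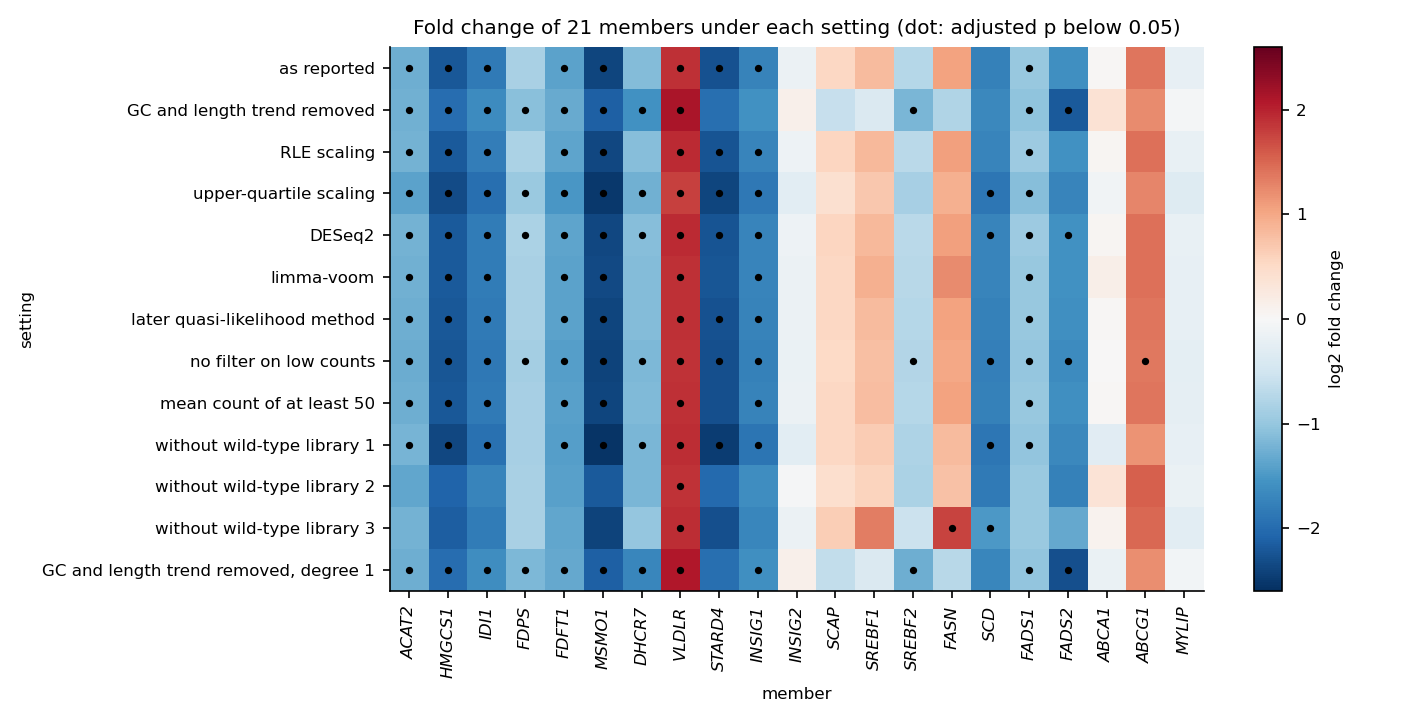
Log2 fold change (colour, blue lower and red higher in the library labelled ARID1B shRNA) of 21 members (columns) under 13 settings of the analysis (rows); a dot marks an adjusted p below 0.05. The blue columns of sterol genes keep their colour in all rows and lose their dots without wild-type library 2 or 3, VLDLR keeps its dot in all rows, and SCAP, SREBF1 and FASN turn from red to blue with the GC and length trend removed.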

How the data were processed

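Per the labels' protocols, poly(A) RNA of 4 Daoy libraries was sequenced with single reads of 100 nucleotides. The deposited values are raw read counts per Ensembl gene; bcl2fastq, HISAT2, HTSeq and DESeq2 with GRCh37 (hg19) are named in the submitters' processing notes, and their versions, the strand setting and the annotation used are not given there. The 5 lines per file that name no gene were left out; reads outside genes made up 5.27% to 7.65% of reads counted in genes, outside them or as ambiguous, and ambiguous reads 6.86% to 7.67% of the genic count. Symbols matched 51996 of 57820 identifiers (89.9%) without the version number. GC content, length and overlaps came from GENCODE release 29 of GRCh38, so no gene coordinates of the files are given.

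Counts were tested with edgeR 4.0.16 in R 4.3.3: filterByExpr (minimum count 10, minimum total 15; 17024 genes), TMM scaling, robust glmQLFit and glmQLFTest with 2 residual degrees of freedom (the lone library is assumed to vary like the wild-type ones), Benjamini-Hochberg adjustment over all tested genes and a threshold of 0.05. The standard error is the absolute log2 fold change over the square root of F. The trend on GC content (known for 97.6% of tested genes) and length was a loess of degree 2 and span 0.3 per library, from genes whose mean count reached 20, entered as offsets. Intervals are exact 95% Poisson intervals and cover counting error only. The alternatives tried were upper-quartile or RLE scaling, limma-voom (limma 3.58.1), DESeq2 1.42.0, the later quasi-likelihood method, a minimum mean count of 50, no filter, leaving out each wild-type library and, added after seeing the data, a trend of degree 1. The members, lists and motifs were chosen with earlier results of these data known. The result of 1 marker list is not reported here. Members were given library by library if they passed in either fit or were one of 10 regulators, enzymes and LXR targets listed in the naming rule (SREBF1, SREBF2, SCAP, INSIG1, INSIG2, ABCA1, ABCG1, MYLIP, FASN and SCD); of the other lists, genes that passed are named.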

Additional observations from a re-analysis of the deposited data

How the results depend on the processing

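The 12 alternatives left the sign of both branch medians in place. The sterol synthesis median was -0.95 as reported, -1.22 with the GC and length trend removed, -1.23 with that trend at degree 1, and -1.03 to -0.79 when each wild-type library was left out in turn; the fatty acid median ranged from -0.86 to -0.69 there. Members that fell numbered 8 as reported, 14 with DESeq2 and 18 with no filter on low counts, where 4 rose. Of all tested genes 0.834%, 2.58% and 3.10% fell in these fits, and 7.41% rose with no filter. Upper-quartile scaling, which moved the median of all genes from -0.05 to -0.17, gave 12 members that fell, against 1.13% of all tested genes. Leaving out single wild-type libraries gave 0 to 12 that fell and 1 to 2 that rose. Of the other pathway genes 1 fell and 3 rose as reported. With the trend removed at either degree 0 fell, while 10 were lower and 4 higher at an unadjusted p below 0.05 by edgeR. Of all tested genes 11.0374% at degree 2 and 12.9641% at degree 1 were lower at that p. Of the other pathway genes 2 fell with upper-quartile scaling, 4 with DESeq2 and 6 with no filter, where 6 rose. Without single libraries 0 to 1 fell and 0 to 3 rose.

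Among ARID1B and the members given library by library, signs turned for INSIG2 (0.13 and 0.14 with the trend removed at degree 2 and 1), SCAP (-0.60 and -0.64), SREBF1 (-0.37 and -0.38) and FASN (-0.79 and -0.72). They also turned for ARID1B at degree 1 (-0.16), and for ABCA1 with upper-quartile scaling (-0.0851), at degree 1 (-0.18) and without wild-type library 1 (-0.28, against 0.36 without library 2). Of the other members PMVK, MVD and SOAT1 turned with the trend removed at degree 2 (-0.36, -0.14 and 0.15). The cause was not tested. Over all genes, the share of calls that were higher went from 81.4% to 70.8% with the trend removed. No paired analysis was possible because the shRNA group holds 1 library. A single library of 8792848 genic reads limits low genes: 3 counts there are 0.342 CPM.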
